A study of Mus musculus with 12 samples.

Results

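Map4k2, Map3k11, Map3k13 and Map2k7 are kinases of the cascades that lead to the MAP kinases ERK and JNK. They were chosen by name as kinases of these cascades and make up 4 of the 35129 gene entries of the deposited count table. Signals pass down such a cascade from a MAP4K to a MAP3K, then to a MAP2K and finally to a MAP kinase, each kinase phosphorylating the next. In neurons these cascades are known for their part in synaptic plasticity, in stress responses and in the response to axon injury. Map4k2 (germinal centre kinase) stands at the top, Map3k11 (MLK3) and Map3k13 (LZK) are mixed-lineage kinases in the middle tier, and Map2k7 (MKK7) activates the JNKs.

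The levels come from cortical neurons that were picked by hand for their fluorescence. Sst-neurons came from GIN mice, FVB-Tg(GadGFP), on the FVB background, in which eGFP marks only a subset of the somatostatin interneurons. Thy1-neurons came from YFPH mice, B6.Cg-Tg(Thy1-YFP), on the B6 background, in which YFP marks pyramidal neurons of layer V. All mice were males of 20 g and 5 to 7 weeks that carried a subcutaneous mini pump for 14 days. The pump held saline for the groups Sst and Thy1, and nicotine hydrogen tartrate at 48 mg/kg/d for Sst+Nic and Thy1+Nic. Each mouse gave 30 cells and 1 library. Of the 12 libraries, 10 were used, namely 3 of Sst, 2 of Sst+Nic, 2 of Thy1 and 3 of Thy1+Nic, while the libraries labelled replicate 1 in Sst+Nic and in Thy1 were not analysed here. Cell type and mouse strain cannot be told apart in this design, nor can fewer cells of a type and less RNA per cell.

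Between 2915738 and 4878326 fragments were counted per library, and levels are given as CPM, the count scaled to a library total of 1000000. Where no fragment was counted, a limit of 3 counts stands for at most 0.615 to 1.03 CPM, depending on the library. The somatostatin gene was read at 53779 to 126088 CPM in the 5 Sst-neuron libraries and at 1.15 to 49.2 CPM in 4 of the 5 Thy1-neuron libraries, but at 3795 CPM in replicate 3 of Thy1. This library thus goes against its label in part, and the log2 fold changes of single genes that rest on it are given with and without it. Chodl, the second checked marker of Sst interneurons, was at or near 0 in every library. The 3 checked markers of endothelial and mural cells (Cldn5, Col4a1 and Col4a2, of 10 listed) summed to between 32.4 and 148 CPM, and the microglial marker Cd86 (of 7 listed) reached 50.5 CPM in replicate 3 of Sst. Cldn5 was at 0 in 6 of the 10 libraries, both Thy1 libraries among them, and was highest at 35.7 CPM in replicate 2 of Sst. The part of such cells in the levels below was not tested. No pyramidal, oligodendrocyte, astrocyte or blood marker was in a checked entry.

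All 4 genes lie on the plus strand of GRCm38, and Map3k11 and Map4k2 are both near the start of chromosome 19. Map2k7 spans chr8:4238740-4247897 with 3829 exon bases, and Map3k13 spans chr16:21794346-21933439 with 8714 exon bases. Map3k11 spans chr19:5688742-5702865 with 4393 exon bases, and Map4k2 spans chr19:6341135-6355615 with 6654 exon bases. Counts are given per gene, so that exons and UTRs cannot be told apart. Of the Map2k7 exon bases, 35.2% are shared with Gm49320 on the same strand, and 9.79% of those of Map3k11 are shared with an antisense gene. The counting strand is not given in the sources used here, so these counts are uncertain to that extent.

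The sequence around the RefSeq start, which the choice of genes did not use, differs among the 4 genes in the number of CG dinucleotides, but the starts are not alike in place. The start used for Map2k7 is the first base of its span and that of Map4k2 lies 25 bases inside, while that of Map3k11 lies 389 bases inside and that of Map3k13 lies 97.6 kb inside, so that the last is an internal start and the sequence before the gene was not analysed here. In the 300 bases around the start (250 before, 50 after), Map4k2 held 31 CG, Map2k7 29, Map3k11 15 and Map3k13 0, beside a median of 7 over 32851 RefSeq windows. As many CG or more were found in 10.6% of all windows for Map4k2, 12.9% for Map2k7 and 34.6% for Map3k11, while 5.43% of windows held none. A second RefSeq start of Map2k7, 1365 bases inside the span, also had 0 CG in its window. CG reads the same on both strands. The 100 bases directly before the start (RefSeq, GRCm38.p6, plus strand, 5′ to 3′) are shown to let the CG-rich and CG-free stretches be compared, with each CG in capitals. No measurement here bears on how these promoters were used.
Map4k2, chr19:6341060-6341159: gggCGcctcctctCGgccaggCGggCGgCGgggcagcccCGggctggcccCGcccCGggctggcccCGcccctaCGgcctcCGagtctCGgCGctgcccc
Map3k11, chr19:5689031-5689130: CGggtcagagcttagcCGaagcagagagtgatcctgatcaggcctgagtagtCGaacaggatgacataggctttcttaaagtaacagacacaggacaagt
Map3k13, chr16:21891869-21891968: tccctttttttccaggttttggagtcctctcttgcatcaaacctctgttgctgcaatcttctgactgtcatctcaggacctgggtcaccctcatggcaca
Map2k7, chr8:4238640-4238739: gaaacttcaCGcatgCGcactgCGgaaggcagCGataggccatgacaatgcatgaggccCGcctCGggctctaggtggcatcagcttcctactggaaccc

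Map2k7 lay between 74.8 and 107 CPM in 9 of the 10 libraries and at 179 CPM in the other, whereas Map4k2, Map3k11 and Map3k13 each fell below 5 CPM in at least 1 library. On TMM-scaled library sizes, an alternative chosen after seeing the data, these 9 libraries of Map2k7 spread wider. They lay between 68.8 and 135 CPM, and the other was at 160 CPM. The level of Map4k2, the kinase at the top of the cascade, was 4.48, 49.7 and 58.8 CPM in the Sst libraries and 20.2 and 42.4 CPM in the Sst+Nic libraries. It was 41.5 and 11.8 CPM in the Thy1 libraries and 19.9, 13.7 and 0.589 CPM in the Thy1+Nic libraries. In Sst and in Thy1+Nic, 1 mouse each was thus far below the others of its group, and each group overlapped the next in the order of means. These means were 37.7 ± 29.1 CPM (SD, n = 3) in Sst, 31.3 ± 15.7 (n = 2) in Sst+Nic, 26.7 ± 21.0 (n = 2) in Thy1 and 11.4 ± 9.85 (n = 3) in Thy1+Nic.

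Map3k11 showed the widest range in Sst. Its level was 0, 26.0 and 0.270 CPM in the Sst libraries, which stand for 0, 102 and 1 counts, and 24.4 and 8.40 CPM in the Sst+Nic libraries. It was 20.6 and 23.1 CPM in the Thy1 libraries and 21.3, 8.27 and 2.36 CPM in the Thy1+Nic libraries. Replicate 1 of Sst, where no fragment of Map3k11 was counted and up to 0.746 CPM is allowed, had 8942 entries with a count, the most of the 10 libraries, and replicate 3 had 6717, the fewest. Of the 3 checked endothelial and mural markers, Cldn5 was at 0, 35.7 and 0 CPM in Sst replicates 1 to 3, Col4a1 at 0.995, 10.5 and 25.9 CPM and Col4a2 at 35.6, 31.1 and 6.48 CPM, so that only Cldn5 was highest in replicate 2, the Sst library with Map3k11. Their sum was 36.5, 77.3 and 32.4 CPM. Replicate 2 of Sst+Nic and both Thy1 libraries, with 20.6 to 24.4 CPM of Map3k11, had Cldn5 at 0 and sums of 34.98, 148 and 37.1 CPM. Replicate 1 of Thy1+Nic, with 21.3 CPM of Map3k11, had Cldn5 at 12.1 CPM and a sum of 97.9 CPM. The mean was highest in Thy1 with 21.8 ± 1.72 CPM (SD, n = 2) and lowest in Sst with 8.76 ± 14.9 (n = 3), with 16.4 ± 11.3 (n = 2) in Sst+Nic and 10.6 ± 9.70 (n = 3) in Thy1+Nic between them, and neighbours in this order overlapped.

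Map3k13, the other mixed-lineage kinase, lies in a stretch where entry names were checked less closely than for the other genes, with 14 of 35 compared genes within 1% of the study's own values. It was at 84.5, 15.8 and 41.3 CPM in the Sst libraries and at 51.4 and 27.5 CPM in the Sst+Nic libraries. It was at 46.7 and 18.9 CPM in the Thy1 libraries and at 2.30, 6.14 and 24.5 CPM in the Thy1+Nic libraries. The group means had the same order as those of Map4k2, with 47.2 ± 34.7 CPM (SD, n = 3) in Sst, 39.5 ± 17.0 (n = 2) in Sst+Nic, 32.8 ± 19.6 (n = 2) in Thy1 and 10.97 ± 11.8 (n = 3) in Thy1+Nic, and neighbours again overlapped.

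Map2k7, the activator of JNK, was at 84.5, 81.4 and 84.7 CPM in the Sst libraries and at 92.9 and 179 CPM in the Sst+Nic libraries. It was at 74.8 and 95.8 CPM in the Thy1 libraries and at 93.3, 107 and 78.1 CPM in the Thy1+Nic libraries. A single library, replicate 3 of Sst+Nic, stood above all others, and the remaining 9 lay between 74.8 and 107 CPM. The means were 136 ± 60.7 CPM (SD, n = 2) in Sst+Nic, 92.6 ± 14.3 (n = 3) in Thy1+Nic, 85.3 ± 14.9 (n = 2) in Thy1 and 83.5 ± 1.89 (n = 3) in Sst, with overlap between neighbours in this order.

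**Figure D1:**
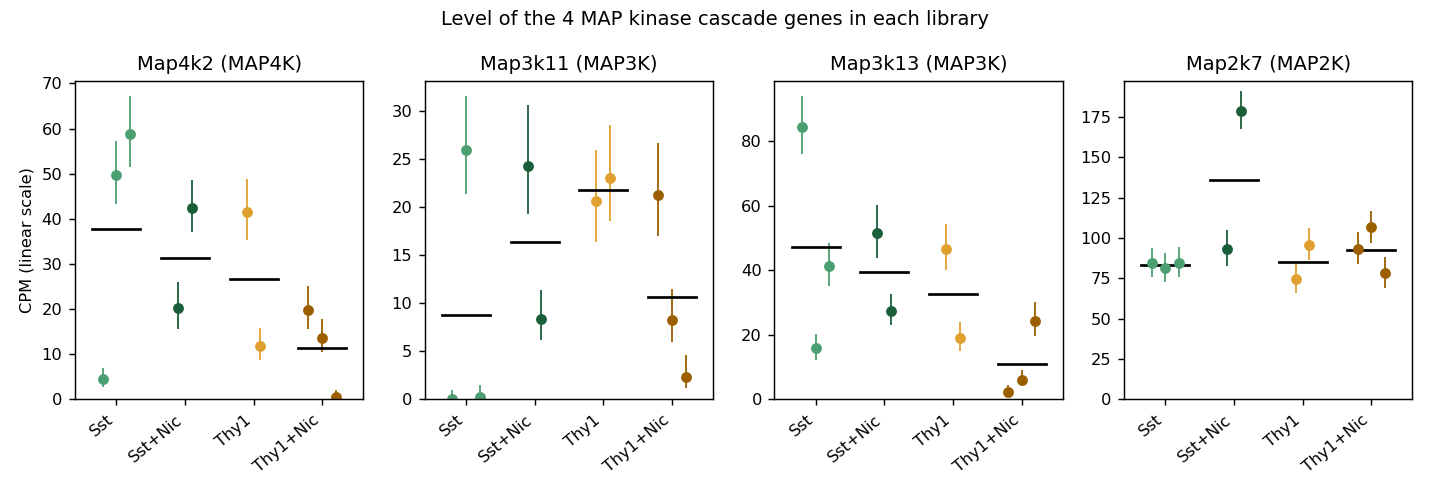
Level of each gene in CPM (linear scale) by group; points are libraries, bars on points are 95% Wilson intervals of the count, and black lines are group means. Map2k7 lies between 74.8 and 107 CPM in all libraries but 1, while each of the other genes falls below 5 CPM in at least 1 library.

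The spread between mice of a group, pooled over the 4 groups as an SD of log2(CPM + 1) with 6 degrees of freedom, was 0.32 for Map2k7, 1.18 for Map3k13, 1.71 for Map4k2 and 1.77 for Map3k11. Among the 158 position-checked entries with a mean CPM within a factor of 2 of that of Map2k7, the median SD was 0.59, and 10 entries (6.33%) had a smaller SD than Map2k7. The other genes had an SD above the median of the entries of their level, which was 0.99 for Map4k2, 0.93 for Map3k13 and 1.53 for Map3k11. A smaller SD was found in 109 of 131 entries for Map4k2, in 93 of 144 for Map3k13 and in 51 of 80 for Map3k11.

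Genes can be compared in level only per length. Per kb of exon, Map2k7 was the highest of the 4 genes in 10 of 10 libraries, with 19.5 to 46.7 CPM per kb, and exceeded the second by 2.28 to 13.5 times (median 4.44). The second place was taken by Map4k2 in 5 libraries, by Map3k13 in 3 and by Map3k11 in 2, so the order of these 3 genes did not hold from mouse to mouse. Exon lengths are those of all annotated transcripts joined, which understates the level of a gene with many alternative exons, such as Map4k2 with 84 distinct exons listed.

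**Figure D2:**
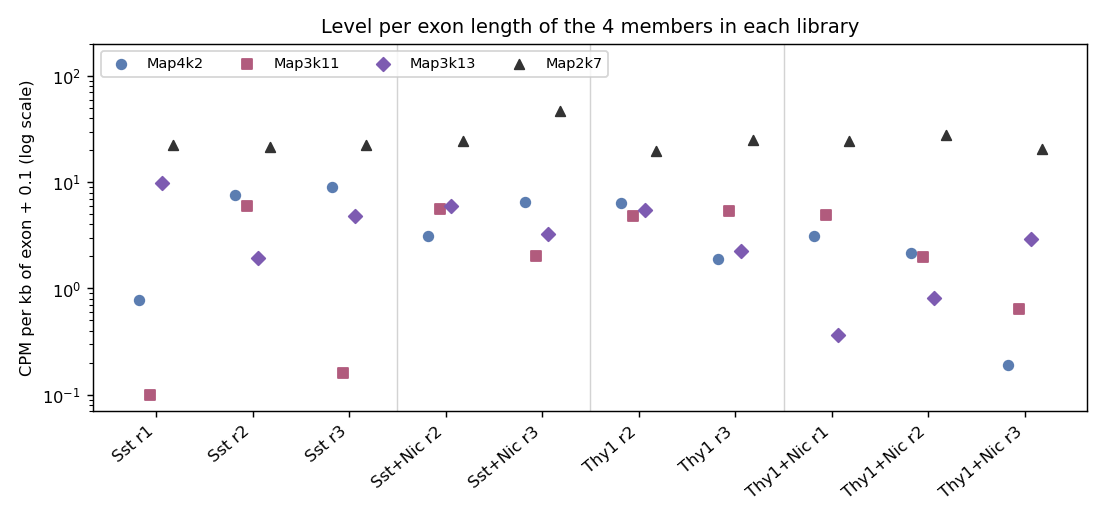
CPM per kb of exon, with 0.1 added, on a log axis for each of the 10 libraries (r1 to r3 are replicate numbers); each symbol is 1 gene. Map2k7 is the uppermost symbol in 10 of 10 libraries, and the order of Map4k2, Map3k11 and Map3k13 below it changes from library to library.

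The 4 genes did not vary as 1 group across the libraries. Pearson's r of log2(CPM + 1) between pairs of them, over 10 libraries, ran from -0.44 (Map3k11 and Map3k13) to 0.35 (Map3k11 and Map4k2). Among 411 position-checked entries with a mean of at least 10 CPM, the patterns most like that of Map3k11 were those of Rasa3 (r = 0.94), Il1rap (0.89) and Arhgap31 (0.86). Map3k13 was most like Eif4a2 (0.92), Top3b (0.86) and Arhgef10 (0.86), and Map4k2 most like Atp11a (0.78), Rpl24 (0.75) and Nfkbiz (0.73). For Map2k7 the likeness was lower, with Lamp1 (0.63), Ing1 (0.62) and Zfp597 (0.62). These values describe the same 10 libraries, which differ in depth, cell type and treatment, and were picked as the highest of many.

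The study asked which genes nicotine changes in each cell type. In Sst-neurons, none of the 4 genes changed with nicotine by the quasi-likelihood test of edgeR, where a call needed an adjusted p below 0.05 together with a change of more than 1 on the log2 scale. Called were 0 of 4 genes, beside 0 of 6689 entries (0.0%), and an unadjusted p under 0.05 was found for 0 of the 4 genes and for 280 entries (4.19%). DESeq2 called 16 entries (0.239%) and limma voom 0 (0.0%), none of them among the 4 genes. The log2 fold change of Map2k7 was 0.52 (SE 0.42, 95% interval -0.47 to 1.51, adjusted p = 1.0 by edgeR). Both Sst+Nic libraries exceeded all 3 Sst libraries for Map2k7, the only 1 of the 4 genes without overlap, and 16.0% of all entries tested did the same, while 4.78% were lower without overlap. This rests on library totals: on TMM-scaled library sizes, an alternative chosen after seeing the data, Sst+Nic replicate 2 was at 68.8 CPM, below the 71.9 to 86.2 CPM of Sst, and 0 of the 4 genes were without overlap, beside 12.6% of entries higher and 8.07% lower. The differences were 0.45 (SE 2.11) for Map3k11, -0.43 (0.69) for Map3k13 and -0.51 (1.06) for Map4k2, all on the log2 scale. The 95% interval of Map3k11, from -4.53 to 5.43, spans both directions widely. With each library left out in turn, Map2k7 ran from -0.22 (without replicate 3 of Sst+Nic) to 0.98 (without replicate 2 of Sst+Nic), Map4k2 from -1.35 to -0.026 (the same libraries) and Map3k13 from -0.81 (without replicate 2 of Sst) to 0.17 (without replicate 1 of Sst). Map3k11 ran from -0.37 (without replicate 2 of Sst+Nic) to 6.42 without replicate 2 of Sst (adjusted p = 0.698, edgeR; unadjusted p under 0.05, as for 5.9% of entries in that fit). The remaining Sst libraries then hold 1 count of Map3k11 in all, so the size of this and each later value of Map3k11 fitted without replicate 2 of Sst rests on 1 count among the Sst libraries.

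In Thy1-neurons, again 0 of 4 genes were called by edgeR, beside 0 of 6048 entries (0.0%). An unadjusted p under 0.05 was found for 0 of the 4 and for 264 entries (4.37%). DESeq2 called 14 entries (0.231%) and limma voom 0 (0.0%), and none was among the 4 genes. The log2 fold changes were -1.52 for Map3k13 (SE 0.97, 95% interval -3.76 to 0.71), -1.02 for Map4k2 (SE 1.21, -3.80 to 1.77), -0.90 for Map3k11 (SE 0.99, -3.19 to 1.40) and 0.23 for Map2k7 (SE 0.39, -0.67 to 1.13). The fitted value lay below 0 for 3 of 4 genes, with a median of -0.96 beside -0.00301 over all entries. For each of the 4 genes the Thy1 and Thy1+Nic libraries overlapped, whereas 7.18% of entries were higher and 13.7% lower in Thy1+Nic without overlap. Without replicate 3 of Thy1 the values were -1.96, -1.57, -0.69 and 0.55 in the same order of genes. Over all libraries left out, Map3k13 ran from -2.73 (without replicate 3 of Thy1+Nic) to -0.85 (without replicate 2 of Thy1), Map4k2 from -1.64 (without replicate 1 of Thy1+Nic) to 0.038 (without replicate 2 of Thy1), Map3k11 from -1.87 to -0.42 (without replicates 1 and 3 of Thy1+Nic) and Map2k7 from -0.0052 to 0.55 (without replicates 2 and 3 of Thy1). At -2.73 Map3k13 had an adjusted p = 0.655 (edgeR) and an unadjusted p under 0.05, as had 6.84% of entries in that fit.

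Over both cell types, 0 of 4 genes were called for nicotine, beside 0 of 8242 entries (0.0%), with an unadjusted p under 0.05 for 0 of the 4 and for 462 entries (5.61%). DESeq2 called 7 entries (0.0849%) and limma voom 0 (0.0%), none of them among the 4. The log2 fold changes (edgeR, nicotine minus saline) were 0.39 (SE 0.30) for Map2k7, -0.21 (1.22) for Map3k11, -0.97 (0.63) for Map3k13 and -0.74 (0.86) for Map4k2. They were 0.54, -0.12, -1.19 and -1.04 in the same order without replicate 3 of Thy1. Over all libraries left out, Map2k7 ran from 0.010 to 0.64 (without replicates 3 and 2 of Sst+Nic), Map3k11 from -0.72 (without replicate 1 of Thy1+Nic) to 2.74 (without replicate 2 of Sst), Map3k13 from -1.56 (without replicate 3 of Thy1+Nic) to -0.65 (without replicate 2 of Thy1) and Map4k2 from -1.17 (without replicate 3 of Sst+Nic) to -0.26 (without replicate 2 of Thy1). Map3k11 at 2.74 and Map3k13 at -1.56 had an unadjusted p under 0.05, as had 5.8% and 5.45% of entries in those fits, with adjusted p = 0.849 and 0.893 by edgeR. No gene of the 4 was free of overlap between the 5 nicotine and 5 saline libraries, a pattern seen for 0.121% of entries in the higher and 0.0728% in the lower direction. In an exact two-sided permutation test of log2(CPM + 1) within cell types, over 100 arrangements, Map2k7 differed by 0.37 with p = 0.06. This was 1 of 8 such tests, and p was 0.28 when TMM-scaled library sizes were used. Leaving out replicate 3 of Thy1 gave an exact p = 0.025 and leaving out replicate 3 of Thy1+Nic an exact p = 0.0333, so that p lay on the other side of 0.05 without either of these libraries. Both of these tests had fewer than 100 arrangements. Without replicate 3 of Thy1, which leaves 1 library in that group, 0.025 was the lowest p that the test could give. With all libraries the exact p-values were 0.68 for Map3k11, 0.28 for Map3k13 and 0.53 for Map4k2.

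Whether nicotine acted differently in the 2 cell types was tested by the interaction. It was called for 0 of the 4 genes and for 0 of 8242 entries (0.0%), with an unadjusted p under 0.05 for 0 of the 4 and for 605 entries (7.34%). DESeq2 called 7 entries (0.0849%) and limma voom 0 (0.0%), none among the 4. The interaction, as a log2 difference of Sst-neurons minus Thy1-neurons, was 0.27 (95% interval -1.04 to 1.59) for Map2k7, 1.34 (-3.89 to 6.57) for Map3k11, 1.05 (-1.65 to 3.76) for Map3k13 and 0.50 (-3.21 to 4.21) for Map4k2. Leaving out replicate 3 of Thy1 gave -0.0097, 1.16, 1.51 and 1.10, so that Map2k7 took the opposite sign. Over all libraries left out, Map2k7 ran from -0.42 to 0.76 (without replicates 3 and 2 of Sst+Nic), Map3k13 from 0.43 (without replicate 2 of Thy1) to 2.27 (without replicate 3 of Thy1+Nic) and Map4k2 from -0.54 to 1.10 (without replicates 2 and 3 of Thy1). Map3k11 ran from 0.56 (without replicate 2 of Sst+Nic) to 7.31 without replicate 2 of Sst (adjusted p = 0.751, edgeR; unadjusted p under 0.05, as for 6.44% of entries in that fit). Differences of more than 4-fold in either direction lie inside these intervals for Map3k11 and Map4k2.

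**Figure D3:**
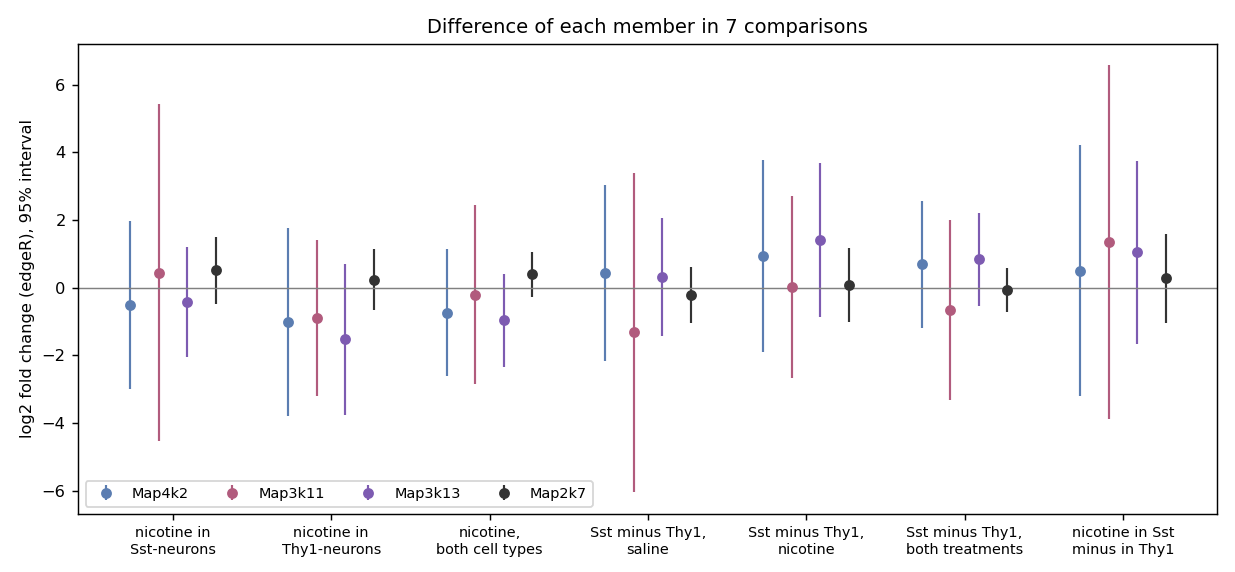
Log2 fold change of each gene (edgeR, linear axis) with its 95% interval in the 7 comparisons. A value above 0 means higher with nicotine or higher in Sst-neurons. For the interaction it means a nicotine log2 fold change higher in Sst-neurons than in Thy1-neurons, whatever the sign of each. All 28 intervals include 0, and those of Map2k7 are the narrowest in each comparison.

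The study also compared the cell types without and with nicotine. Without nicotine, 0 of 4 genes were called by edgeR, beside 1.72% of the 6350 entries (0.819% higher and 0.898% lower in Sst), and the unadjusted p was under 0.05 for 0 of the 4 and for 16.3% of entries. DESeq2 and limma voom also called 0 of the 4, beside 8.68% and 1.72% of entries. The log2 fold changes of Sst against Thy1 were -0.21 (SE 0.35) for Map2k7, -1.32 (2.00) for Map3k11, 0.31 (0.73) for Map3k13 and 0.44 (1.09) for Map4k2. The Sst and Thy1 libraries overlapped for all 4 genes, while 20.0% of entries were higher and 15.3% lower in Sst without overlap. Without replicate 3 of Thy1, the library with counts on the somatostatin gene, these values were 0.071, -1.13, -0.17 and -0.15, so that Map2k7, Map3k13 and Map4k2 took the opposite sign. Without replicate 2 of Sst, Map3k11 stood at -7.30 with an adjusted p of 0.153 (edgeR) and an unadjusted p under 0.05, as had 16.7% of entries in that fit. Over all libraries left out, Map3k11 ran up to -0.75 (without replicate 3 of Sst), Map2k7 from -0.50 (without replicate 2 of Thy1) to 0.071, Map3k13 from -0.33 (without replicate 1 of Sst) to 0.92 (without replicate 2 of Thy1) and Map4k2 from -0.15 to 1.44 (without replicate 2 of Thy1).

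With nicotine, 0 of 4 genes were called by edgeR, beside 0.507% of the 6509 entries, and the unadjusted p was under 0.05 for 0 of the 4 and for 15.8% of entries. DESeq2 and limma voom called 0 of the 4 here too, beside 7.62% and 0.999% of entries. Map3k13 and Map4k2 were higher in both Sst+Nic libraries than in all 3 Thy1+Nic libraries, as were 30.3% of all entries tested, and none of the 4 was lower without overlap, as were 8.66% of entries. The lowest Sst+Nic value of Map3k13 was 27.5 CPM against a highest Thy1+Nic value of 24.5 CPM, and for Map4k2 these values were 20.2 and 19.9 CPM. On TMM-scaled library sizes, chosen after seeing the data, both genes overlapped, with 24.5 against 25.7 CPM for Map3k13 and 14.99 against 23.5 CPM for Map4k2, while 19.6% of entries were higher and 976 (15%) lower in Sst+Nic without overlap. The log2 fold changes were 1.40 (95% interval -0.88 to 3.67) for Map3k13, 0.94 (-1.91 to 3.78) for Map4k2, 0.076 (-1.01 to 1.17) for Map2k7 and 0.014 (-2.68 to 2.70) for Map3k11. Over all libraries left out, Map3k13 ran from 0.94 to 2.59 (without replicates 1 and 3 of Thy1+Nic), Map4k2 from 0.10 (without replicate 3 of Sst+Nic) to 1.56 (without replicate 1 of Thy1+Nic), Map2k7 from -0.67 to 0.54 (without replicates 3 and 2 of Sst+Nic) and Map3k11 from -0.77 (without replicate 2 of Sst+Nic) to 0.998 (without replicate 1 of Thy1+Nic). At 2.59 Map3k13 had an adjusted p = 0.23 (edgeR) and an unadjusted p under 0.05, as had 18.8% of entries in that fit.

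With all 10 libraries, 0 of 4 genes were called between the cell types, beside 4.95% of the 8242 entries. All 4 overlapped between Sst-neurons and Thy1-neurons, while 5.33% of entries were higher and 3.13% lower in Sst-neurons without overlap, and the unadjusted p was under 0.05 for 0 of the 4 and for 21.6% of entries. DESeq2 and limma voom called 0 of the 4, beside 10.4% and 8.36% of entries. The log2 fold change of Sst-neurons against Thy1-neurons was -0.07 (SE 0.30, 95% interval -0.73 to 0.59, adjusted p = 0.973 by edgeR) for Map2k7, which on the linear scale is a ratio of 0.955 with an interval from 0.604 to 1.51. With library totals in place of TMM it was 0.26, a scaling that moved the median of all entries from 0.078 to 0.41, so that relative to this median Map2k7 stood at -0.15 with TMM and at -0.14 with library totals. For the other genes the values were -0.66 (SE 1.22, adjusted p = 0.835) for Map3k11, 0.85 (SE 0.63, adjusted p = 0.488) for Map3k13 and 0.69 (SE 0.86, adjusted p = 0.722) for Map4k2 by edgeR. Without replicate 3 of Thy1 they were 0.081 for Map2k7, -0.57 for Map3k11, 0.62 for Map3k13 and 0.39 for Map4k2. Over all libraries left out, Map3k11 ran from -3.64 (without replicate 2 of Sst) to -0.19 (without replicate 1 of Thy1+Nic), Map3k13 from 0.54 (without replicate 1 of Sst) to 1.41 (without replicate 3 of Thy1+Nic), Map4k2 from 0.28 (without replicate 3 of Sst+Nic) to 1.19 (without replicate 2 of Thy1) and Map2k7 from -0.45 to 0.18 (without replicates 3 and 2 of Sst+Nic). Map3k11 at -3.64 and Map3k13 at 1.41 had an unadjusted p under 0.05, as had 21.1% and 21.7% of entries in those fits, with adjusted p = 0.0752 and 0.198 by edgeR. The exact two-sided permutation p within treatments was 0.40 for Map2k7, 0.43 for Map3k11, 0.16 for Map3k13 and 0.36 for Map4k2.

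The 4 genes were set beside a list of 162 genes of the MAP kinase cascades, their upstream GTPases, scaffolds, ligands, receptors, targets and phosphatases. Of these, 155 had an entry and 15 lay in position-checked entries, the 4 genes included, so that 11 others could be read. Between the cell types over both treatments, 1 of these 11 was called higher and 1 lower in Sst-neurons by edgeR, beside 2.17% and 2.78% of all entries. With library totals in place of TMM the 408 calls among all entries, 179 higher and 229 lower in Sst-neurons, became 420 with 271 higher and 149 lower. The list's median log2 fold change without the 4 genes was -0.11, beside 0.078 over all entries.

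Rin1, a Ras effector that acts on Rab5, and Rasgrp2, an exchange factor for Rap and Ras, differed in opposite directions. Rin1 was at 0.995, 1.02 and 0.270 CPM in Sst, 1.03 and 3.07 in Sst+Nic, 152 and 60.4 in Thy1, and 76.3, 116 and 72.5 in Thy1+Nic. Its log2 fold change over both treatments was -6.51 (SE 0.59, adjusted p = 7.92e-05 by edgeR), and -6.74 without replicate 3 of Thy1. Rasgrp2 was at 189, 211 and 225 CPM in Sst, 224 and 187 in Sst+Nic, 50.7 and 18.1 in Thy1, and 55.9, 14.2 and 18.3 in Thy1+Nic. Its log2 fold change was 2.38 (SE 0.42, adjusted p = 0.00604 by edgeR), and 2.12 without that library (adjusted p = 0.00542). Each treatment alone gave Rin1 -7.19 without and -5.82 with nicotine (adjusted p = 0.00892 and 0.0326, edgeR), both called. Rasgrp2 was 2.47 and 2.28 (adjusted p = 0.0646 and 0.163, edgeR), neither called. Limma voom called Rin1 in neither (adjusted p = 0.0989 and 0.0973). With nicotine Rin1 was also not called by edgeR with the replicate block (adjusted p = 0.092). The same held without replicate 1, 2 or 3 of Thy1+Nic (adjusted p = 0.12, 0.0745 and 0.0679, edgeR). DESeq2 called Rasgrp2 without and with nicotine (adjusted p = 4.04e-05 and 0.0145). Limma voom called it without nicotine (adjusted p = 0.0406), and edgeR with no filter in both (adjusted p = 1.76e-05 and 0.0012). The values without nicotine were -7.66 for Rin1 and 1.96 for Rasgrp2 when replicate 3 of Thy1 was left out. Over all libraries left out, Rin1 ran from -7.66 to -6.55 (without replicates 3 and 2 of Thy1) and Rasgrp2 from 1.96 to 3.22. Leaving out either Thy1 library leaves 1 in that group, so only the sizes are given. Neither gene's Sst-neuron and Thy1-neuron libraries overlapped, as for 3.13% of all entries in the lower and 5.33% in the higher direction. Nicotine called 0 of the other genes of the list in each cell type, where 10 were tested, and 0 of 11 over both.

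**Figure D4:**
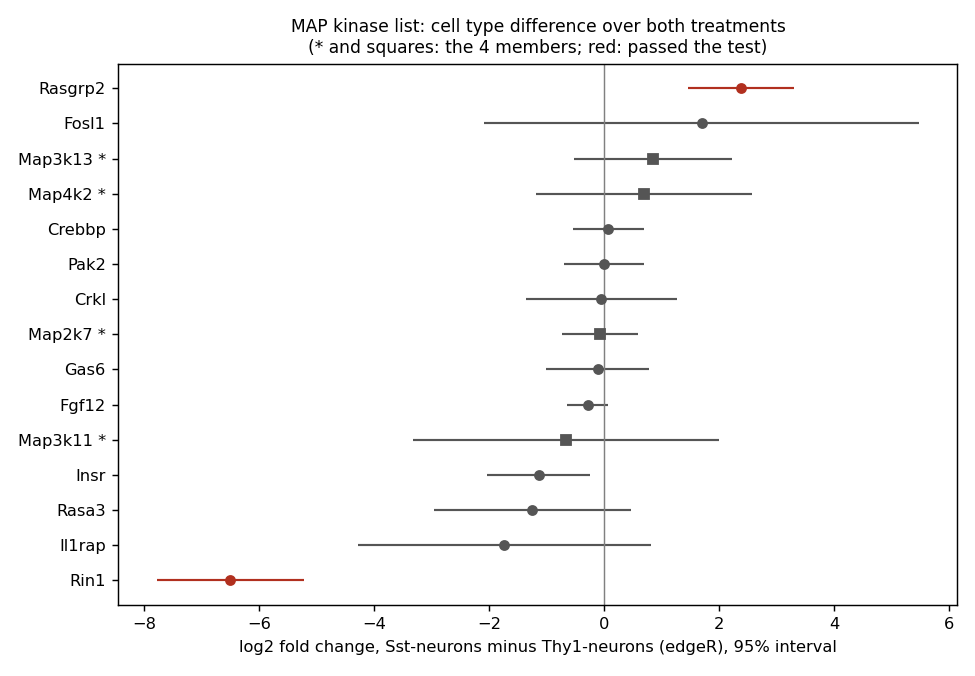
Log2 fold change of Sst-neurons against Thy1-neurons over both treatments (edgeR, linear axis) with 95% intervals for the 15 readable genes of the list; squares and asterisks mark Map4k2, Map3k11, Map3k13 and Map2k7, and red marks genes that passed the test. Rin1 lies to the left of 0 and Rasgrp2 to the right, while the intervals of the 4 cascade genes include 0.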

How the data were processed

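RNA of 30 hand-picked neurons per mouse was amplified (SMARTer) and sequenced in pairs. The authors aligned reads to the mouse genome with TopHat, and the submitters' processing notes also name HTSeq and GRCm38. Software versions, annotation and strand setting are not given in the sources used here. The deposited values are whole-number fragment counts per gene entry, not normalized, for 10 libraries of 2915738 to 4878326 fragments. Intervals (Wilson, 95%) and limits cover counting error only.

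The 4 genes and all lists were chosen with earlier results of these data known. Most entry names could not be relied on. Of 1287 nuclear genes compared with the study's own group values, 969 held under 5% of them. Values are therefore read only from position-checked stretches (891 nuclear entries), in which every compared gene held 0.3 to 3 times those values. These stretches run from the start of a chromosome with its first 1 Mb left out. All 4 genes lie in such stretches between compared genes that held 81.2% to 100.0%. The check is weaker for Map3k13, whose stretch on chromosome 16 held 14 of 35 compared genes within 1% and a lowest ratio of 0.308, against 8 of 9 (Map2k7) and 8 of 10 (Map3k11 and Map4k2). The nearest compared genes of Map3k13 were 1122 kb before and 557 kb after it. The entries next to each gene were Men1 and Sf1 (Map4k2, medians 89.6 and 208 CPM), Sipa1 and Kcnk7 (Map3k11, 27.5 and 0 CPM), 1300002E11Rik and Gm5962 (Map3k13, 37.8 and 0 CPM), and Lrrc8e and Snapc2 (Map2k7, 0.824 and 86.0 CPM).

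Counts were tested with edgeR 4.0.16 (quasi-likelihood, TMM, filterByExpr with minimum count 10, Benjamini-Hochberg over all entries tested) in R 4.3.3; all 4 genes passed the filter in every comparison. The study's EBSeq was replaced by edgeR with the same FDR and fold thresholds. Comparisons of 2 groups used their 5 libraries, the others all 10. Alternatives included DESeq2 1.42.0 and limma 3.58.1 (voom). Levels were compared by exact permutation with a pseudocount of 1 CPM. Named are the 4 genes, every list gene in a position-checked entry, the 3 entries most like each gene, and the entries next to it. Each library is a separate mouse. No proteins were analysed here, and 1 item is not reported here.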

Additional observations from a re-analysis of the deposited data

How the results depend on the processing

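The count of 0 of 4 cascade genes called was found in all 7 comparisons under every alternative run: DESeq2, limma voom with sample quality weights, RLE size factors, library totals, no filter, at least 10 counts in a library, mitochondrially encoded genes left out, position-checked entries alone, all libraries in 1 fit, the replicate block, no fold threshold, and each library left out (0 to 0). The share of entries called was less stable: 0.414% to 8.68% (1.72% in the text) between the cell types without nicotine, 0.0% to 7.62% (0.507%) with nicotine, 3.26% to 13.1% (4.95%) over both, up to 0.239% and 0.231% for nicotine in Sst- and Thy1-neurons, up to 0.17% for nicotine over both and up to 0.243% for the interaction (0.0% each in the text). DESeq2 gave the 8.68% (551 entries) and the 7.62% (496), and position-checked entries alone the 13.1% (72 of 549) and, without nicotine, 6.57% (33 of 502). With library totals the calls with nicotine split into 17 higher and 7 lower in Sst+Nic, against 15 and 18 with TMM. Other list genes called were 0 to 4 without nicotine (1), 0 to 2 with nicotine (1) and 2 to 4 over both (2).

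Some log2 values of uncalled genes took the opposite sign. With limma voom Map4k2 was 0.18 for nicotine in Sst-neurons and -0.031 between cell types without nicotine, and Map3k11 was 0.97 for nicotine over both cell types. With at least 10 counts Map3k11 was -0.0056 between cell types with nicotine. The cause was not tested. Between the cell types over both treatments Map2k7 was 0.26 with library totals, a scaling that moved the median of all entries by 0.33 and left Map2k7 below that median (-0.14, against -0.15 with TMM). With position-checked entries alone it was 0.10, and 0.081 above their median. Moves of over 1.5 times with the same sign came with limma voom and with the replicate block, given in this order. Map4k2 was -1.85 and -2.61 for nicotine in Thy1-neurons (-1.02 in the text) and 1.88 and 2.54 between cell types with nicotine (0.94), and Map3k11 3.26 and 1.71 for nicotine in Sst-neurons (0.45), -4.23 and -2.59 between cell types without nicotine (-1.32), -2.02 and -1.35 over both (-0.66) and 4.59 and 3.31 for the interaction (1.34). Limma voom gave 1.84 for Map4k2 (0.50) and 1.74 for Map3k13 (1.05) in the interaction. The block gave Map4k2 -1.19 for nicotine in Sst-neurons and 1.19 between cell types without nicotine, and Map3k11 -2.17 for nicotine in Thy1-neurons and 1.19 between cell types with nicotine. Library totals put Map3k11 at 0.62 between cell types with nicotine and 1.93 in the interaction, where the median of all entries moved by 0.51 and 0.33. The cell type difference of the Map2k7 level (0.23 on library totals) was -0.10 with TMM-scaled sizes.

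With 1 library left out at a time, the sign was not fixed for Map2k7 in nicotine in Sst-neurons (-0.22 to 0.98) and in Thy1-neurons (-0.0052 to 0.55), cell type without (-0.50 to 0.071) and with nicotine (-0.67 to 0.54) and over both (-0.45 to 0.18), and the interaction (-0.42 to 0.76). The same held for Map3k11 in nicotine in Sst-neurons (-0.37 to 6.42), nicotine over both (-0.72 to 2.74) and cell type with nicotine (-0.77 to 0.998), for Map3k13 in nicotine in Sst-neurons (-0.81 to 0.17) and cell type without nicotine (-0.33 to 0.92), and for Map4k2 in nicotine in Thy1-neurons (-1.64 to 0.038), cell type without nicotine (-0.15 to 1.44) and the interaction (-0.54 to 1.10). In the permutation test the cell type difference of Map2k7 ran from -0.0015 to 0.47 and its nicotine difference from 0.13 to 0.60. A group's lone library was taken to vary like the others.

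Replicate numbers named different mice, so the replicate block stays an alternative. The r of deviations (-0.105 to 0.0264 over 8 same-number pairs) cannot decide pairing, as libraries in a group of 2 mirror each other. With the block, 59 entries were called between cell types without nicotine and 9 with it, 0 of the 4 cascade genes were called, and Map3k13 was 0.24 for nicotine in Sst-neurons and -0.30 between cell types without nicotine.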

Other observations

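Among the other readable genes of the list, the insulin receptor gene Insr was at 37.5, 14.3 and 22.7 CPM in Sst, 42.9 and 138 in Sst+Nic, 133 and 81.0 in Thy1, and 62.8, 43.5 and 95.7 in Thy1+Nic. Its log2 fold change for nicotine was 1.76 (SE 0.66, unadjusted p = 0.031, adjusted p = 1.0, edgeR) in Sst-neurons and -0.58 (SE 0.41, adjusted p = 1.0, edgeR) in Thy1-neurons, and the interaction was 2.31 (SE 0.80, unadjusted p = 0.0134, adjusted p = 0.672, edgeR), so that neither passed the correction. Without replicate 3 of Sst+Nic these were 0.47 in Sst-neurons and 1.07 for the interaction, and without replicate 3 of Thy1 they were -0.80 in Thy1-neurons and 2.56 for the interaction. Both Sst+Nic libraries were above all Sst libraries for Insr, as for 16.0% of all entries, but not on TMM-scaled library sizes (31.8 CPM in Sst+Nic replicate 2 against 31.9 in Sst replicate 1), an alternative chosen after seeing the data. Without nicotine Insr differed by -2.31 between Sst and Thy1 (adjusted p = 0.075, edgeR), while the adjusted p was 0.000442 with DESeq2 and, with edgeR, 0.00252 without the filter and 0.0207 when 1 library of 10 counts or more sufficed, and ran up to 0.352 over all alternatives; without replicate 3 of Thy1 the difference was -2.57 (adjusted p = 0.204, edgeR).

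Il1rap, a subunit of the interleukin-1 receptor, and Rasa3, a GTPase-activating protein for Ras and Rap, were lower in all 3 Sst libraries than in both Thy1 libraries, as were 15.3% of all entries. Il1rap was at 0, 38.3 and 0 CPM in Sst, 77.2 and 7.79 in Sst+Nic, 88.8 and 50.5 in Thy1, and 73.1, 64.3 and 27.7 in Thy1+Nic. Rasa3 was at 0.995, 31.4 and 3.51 CPM in Sst, 70.3 and 20.9 in Sst+Nic, 45.0 and 62.0 in Thy1, and 57.6, 32.4 and 20.0 in Thy1+Nic. With nicotine the groups overlapped for both, and the log2 fold changes were -1.03 and -0.28 (adjusted p = 0.733 and 0.947, edgeR). Neither passed the test without nicotine (adjusted p = 0.662 and 0.492, edgeR), although Il1rap had an adjusted p of 0.0243 in edgeR with no filter on low counts. There the log2 fold changes were -2.43 for Il1rap and -2.20 for Rasa3, against -2.70 and -1.84 without replicate 3 of Thy1, and Rasa3 was -4.83 without replicate 2 of Sst (adjusted p = 0.134, edgeR). For Il1rap no fold change is given without that library, since both remaining Sst libraries are at 0 counts. In replicates 1 and 3 of Sst, where Map3k11 held 0 and 1 counts, Il1rap was at 0 and Rasa3 at its lowest 2 levels of the 10 libraries. Fgf12, Gas6, Crkl, Pak2, Crebbp and Fosl1 were called by edgeR in 0 of the comparisons in which they were tested. For nicotine in Sst-neurons, Fgf12 was lower without overlap on library totals and on TMM-scaled sizes, as were 4.78% and 8.07% of entries. Pak2 was higher without overlap on library totals, as were 16.0%, but not on TMM-scaled sizes. Between cell types with nicotine, Pak2 was higher without overlap on library totals (30.3% of entries) and Fgf12 lower on TMM-scaled sizes (15%).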
